A study of Homo sapiens with 12 samples.

Results

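Polyamine synthesis and hypusination genes were followed on 12 arrays by every probe set whose array annotation names 1 of 8 genes: ODC1, AMD1, SRM, SMS, SAT1, OAZ1, OAZ2 and DHPS. There were 16 such probe sets among 22215 that are not controls, and 11963 genes in all are named alone by a probe set. Of these, 15 named 1 gene only and lay above the filter on low values, and 1, which names SAT1 together with another gene, was left out of the tests. The cells were K562, a human line derived from a chronic myeloid leukaemia that carries the BCR-ABL1 fusion kinase. They were kept for 24 h with 0.05 µM nilotinib (AMN107, 4 arrays), 0.5 µM imatinib (STI571, 4 arrays) or the solvent DMSO (4 arrays). Both compounds bind the ABL kinase domain, and nilotinib was derived from imatinib. Their doses differed, and each is described in the labels as an IC50, the concentration at which inhibition is half-maximal. All 3 groups are 1 cell line, and nothing in the labels says whether its 4 arrays were separate cultures. P-values then measure only the spread among these arrays, which may be technical. In RNA from whole cultures, fewer cells with a transcript and less transcript per cell cannot be told apart.

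Polyamines are small positively charged molecules that growing cells need for translation and nucleic acid stability. Ornithine decarboxylase (ODC1) makes putrescine, and S-adenosylmethionine decarboxylase (AMD1) supplies the aminopropyl groups with which SRM makes spermidine and SMS makes spermine. SAT1 acetylates spermidine and spermine for export or breakdown. The antizymes OAZ1 and OAZ2 bind ODC1 protein, direct it to the proteasome and slow polyamine uptake. DHPS uses spermidine for the first step of hypusination, a modification known on the translation factor EIF5A.

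Although the deposited arrays have nearly equal trimmed means, their median signals were 179 ± 12.1 with nilotinib, 142 ± 8.71 with imatinib and 119 ± 2.17 with DMSO (SD, n = 4 each). No group overlapped another in the median, and an exact two-sided permutation test gave p = 0.0286 for each pair, the smallest that 4 against 4 allow (adjusted p = 0.0612 over 15 tests). The middle 28S ribosomal RNA control had 4959 ± 296, 4845 ± 349 and 1509 ± 261 in the same order. The actin 3'/5' signal ratio was above 3.5 on 4 arrays, replicates 1 and 2 with nilotinib and 5 and 6 with imatinib. The part of the median signal and the 28S signal in the results was not tested. Values without the 4 arrays of high actin ratio are given for the tested probe sets of the 8 genes where a call changed, and for some others. Of 11 K562 markers, 8 had a probe set naming them alone, and all 8 lay above the filter, at percentiles 66.5 to 99.6 of all probe sets. Of 15 markers of T cells, B cells, monocytes and granulocytes, and fibroblasts with a probe set, 7 lay above it. The mean summed signals of these 4 lists ran from 226 to 1448 with nilotinib, 157 to 925 with imatinib and 154 to 1026 with DMSO. In the same order, the lowest marker, CD14, had 15.5, 5.70 and 6.16, and the highest, ITGAM, had 1147, 814 and 905. ITGAM stood at percentile 84.2, above GATA1 (83.1) and BCR (66.5) of the K562 list. The part of these other markers was not tested.

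Promoter sequences of the genes that moved most are shown first, for the letters around their start sites. They are RefSeq windows of build GRCh38.p14, written 5′ to 3′ on the gene's strand up to the annotated start, and the stretch at the other ODC1 start runs 15 bases past it. Capitals mark CACGTG, the core of the E-box that MYC and MAX among other factors bind, and TATAA, the core of a TATA box.
ODC1, upstream start, chr2:10448328-10448577, minus strand: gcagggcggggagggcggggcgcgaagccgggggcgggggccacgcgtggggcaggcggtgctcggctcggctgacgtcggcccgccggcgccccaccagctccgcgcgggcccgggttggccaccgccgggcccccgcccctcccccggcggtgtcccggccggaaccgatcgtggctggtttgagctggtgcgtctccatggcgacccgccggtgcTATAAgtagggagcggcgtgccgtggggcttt
ODC1, downstream start, chr2:10447998-10448112, minus strand: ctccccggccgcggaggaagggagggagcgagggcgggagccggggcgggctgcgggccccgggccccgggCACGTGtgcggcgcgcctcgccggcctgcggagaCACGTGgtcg
SRM, chr1:11060019-11060268, minus strand: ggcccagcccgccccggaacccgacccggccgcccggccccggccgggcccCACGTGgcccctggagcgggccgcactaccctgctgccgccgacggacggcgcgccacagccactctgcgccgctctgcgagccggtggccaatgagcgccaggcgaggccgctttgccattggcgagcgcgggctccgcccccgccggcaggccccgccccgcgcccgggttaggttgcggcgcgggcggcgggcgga
AMD1, chr6:110874535-110874784, plus strand: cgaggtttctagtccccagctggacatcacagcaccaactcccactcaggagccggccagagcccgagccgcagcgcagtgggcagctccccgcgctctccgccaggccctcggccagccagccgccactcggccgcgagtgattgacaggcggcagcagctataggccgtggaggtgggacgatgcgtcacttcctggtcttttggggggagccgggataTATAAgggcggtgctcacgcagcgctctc
SAT1, chrX:23782923-23783172, plus strand: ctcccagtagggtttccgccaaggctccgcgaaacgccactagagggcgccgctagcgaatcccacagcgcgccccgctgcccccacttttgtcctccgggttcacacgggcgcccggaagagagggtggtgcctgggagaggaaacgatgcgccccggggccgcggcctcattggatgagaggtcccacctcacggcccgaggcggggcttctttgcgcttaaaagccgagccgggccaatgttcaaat
Over the whole 300-base windows (250 bases before and 50 after a start), CACGTG occurred in 2 of the 11 windows of the 8 genes. These were the window of the downstream ODC1 start, which holds it 2 times, 29 bases before the start and from base 6 after it, and the SRM window, which holds it 199 bases before the start. The letters read the same on both strands, and 7.26% of 35116 RefSeq windows hold them. TATAA or its reverse complement occurred 32 bases before the upstream ODC1 start, 29 bases before the AMD1 start shown, from base 7 after the OAZ1 start, and in 20.4% of all windows. CCAAT or its reverse complement was searched for as well, is not marked above, and occurred in 34.6% of all windows. Windows of SRM, SMS, SAT1, OAZ1 and DHPS held it, as did an AMD1 window not shown, and those of ODC1 and OAZ2 did not. The motifs were chosen after the sequences were seen, a match is a description of letters, and nothing on binding was measured.

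The comparisons of nilotinib with DMSO and of imatinib with DMSO ask which transcripts differ between cells kept with each drug and cells kept with the solvent. The transcripts of all 4 synthesis enzymes fell with both drugs, and SAT1 rose on all 3 of its probe sets. OAZ2 rose with nilotinib on both of its probe sets and with imatinib on 1 of 2, and OAZ1 did not pass the test. DHPS was called lower with imatinib on 1 of 3 probe sets and with nilotinib on none. ODC1 fell to 26.2% of its mean DMSO signal with nilotinib and to 47.4% with imatinib, and SAT1 by its brightest probe set stood at 315% and 222% of it. By limma, at an adjusted p under 0.05, nilotinib raised 5 and lowered 5 of 15 tested probe sets, where 33.1% and 21.8% of all 11696 probe sets tested were called higher and lower. Imatinib raised 4 and lowered 6 of 15, where 20.0% and 15.6% of all were called. In both directions together, 10 of 15 were called with nilotinib, beside 54.9% of all probe sets, and 10 of 15 with imatinib, beside 35.6%. With a log2 change of at least 1 besides, 6 were called with nilotinib, where 16.5% of all were, and 5 with imatinib, where 7.19% were. For 11 of 15 the 4 nilotinib arrays did not overlap the 4 DMSO arrays, beside 48.0% of all probe sets, and for 11 of 15 the imatinib arrays did not, beside 36.6%. Both comparisons share the 4 DMSO arrays. The median log2 fold change of the 15 was -0.35 with nilotinib, against 0.15 for all probe sets, and -0.15 with imatinib, against 0.09 for all.

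**Figure D1:**
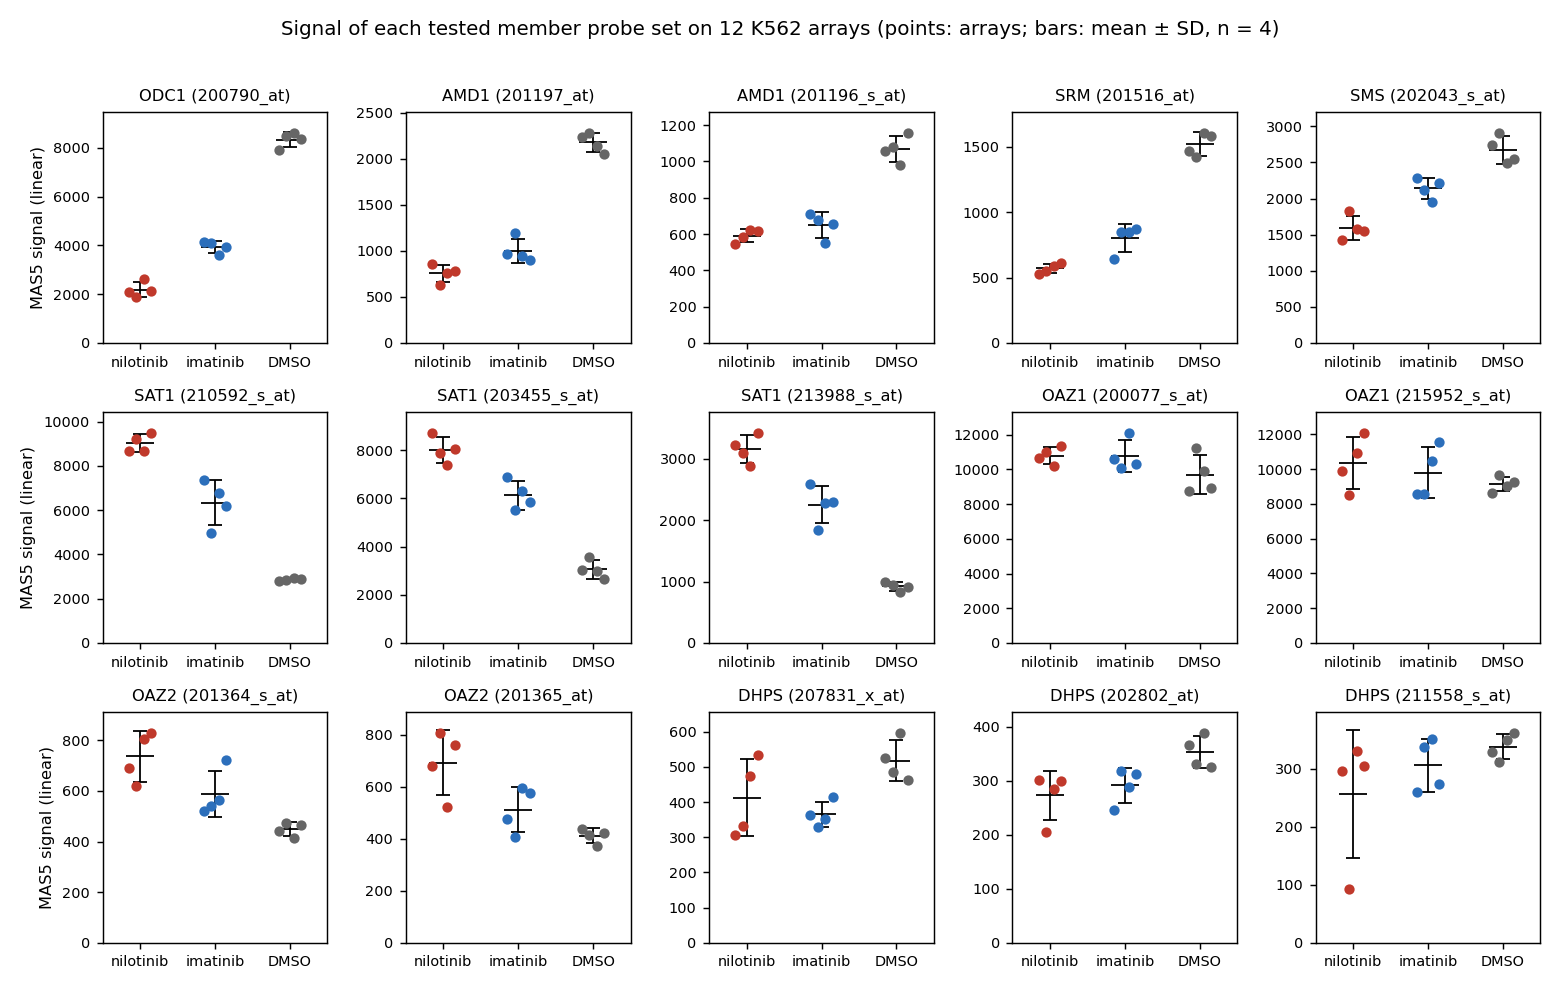
MAS5 signal on a linear axis that starts at 0 for each of the 15 tested probe sets, with a point for each array and the mean ± SD of each group (n = 4). The drug arrays lie below every DMSO array for ODC1, AMD1, SRM and SMS and above every DMSO array for SAT1, while the groups of OAZ1 overlap.

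ODC1 catalyses the entry step into the pathway, and its protein is among the shortest-lived enzymes known. ODC1 (probe set 200790_at) had signals of 2093, 1889, 2633 and 2116 on the nilotinib arrays, 4156, 4097, 3614 and 3924 on the imatinib arrays and 7893, 8469.6, 8604 and 8352 on the DMSO arrays. The groups do not overlap, with nilotinib lowest, imatinib between and DMSO highest. The means were 2183 ± 317 with nilotinib, 3948 ± 243 with imatinib and 8329.5 ± 309 with DMSO (SD, n = 4 each). On the log2(signal + 16) scale, which understates the change of dim probe sets, the fold change was -1.93 ± 0.08 (SE) for nilotinib over DMSO (limma adjusted p = 1.88e-12) and -1.08 ± 0.08 for imatinib over DMSO (limma adjusted p = 1.12e-08). With nilotinib, ODC1 ranked 86th from the most negative change among the 11696 probe sets, and with imatinib 288th.

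AMD1 makes the decarboxylated S-adenosylmethionine that both aminopropyl transfers use. By its brighter probe set (201197_at) AMD1 had signals of 859, 629, 755 and 779.9 on the nilotinib arrays, 961, 1198, 947 and 897 on the imatinib arrays and 2243, 2282, 2145 and 2056 on the DMSO arrays. Its other probe set (201196_s_at) had signals of 543, 582, 622 and 618 on the nilotinib arrays, 711, 677, 548 and 657 on the imatinib arrays and 1058, 1079.8, 979 and 1156 on the DMSO arrays. On both probe sets every drug array lay below every DMSO array. The log2 fold change was -1.52 ± 0.10 with nilotinib and -1.12 ± 0.10 with imatinib by the brighter probe set, and -0.84 ± 0.10 and -0.71 ± 0.10 by the other. The largest of these 4 adjusted p-values from limma was 2.27e-05. Both probe sets gave the same direction, with the larger change by the brighter one.

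SRM, spermidine synthase, and SMS, spermine synthase, carry out the 2 aminopropyl transfers. SRM (201516_at) had signals of 527, 552, 589.5 and 609.6 on the nilotinib arrays, 643, 848, 852 and 874 on the imatinib arrays and 1466, 1422, 1606 and 1586 on the DMSO arrays. SRM thus stood lower on every drug array than on any DMSO array, and imatinib replicate 5 lay apart from its group on the low side. SMS (202043_s_at) had signals of 1429, 1822, 1573 and 1553 on the nilotinib arrays, 2287, 2123, 1952 and 2217 on the imatinib arrays and 2749, 2909, 2497 and 2545 on the DMSO arrays. The 3 groups of SMS do not overlap either, and its steps are smaller. SRM had log2 fold changes of -1.39 ± 0.10 with nilotinib and -0.91 ± 0.10 with imatinib (limma adjusted p = 3.23e-09 and 1.43e-06). SMS had -0.74 ± 0.08 with nilotinib (limma adjusted p = 7.54e-07) and -0.32 ± 0.08 with imatinib (limma adjusted p = 0.00627), and the imatinib call was lost with quantile normalization (-0.22, limma adjusted p = 0.0586).

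SAT1, spermidine/spermine N1-acetyltransferase, is the rate-limiting enzyme of polyamine breakdown. By its brightest probe set (210592_s_at) SAT1 had signals of 8683, 9228, 8657 and 9486 on the nilotinib arrays, 7369.7, 4985, 6786 and 6195 on the imatinib arrays and 2797, 2831, 2917 and 2884 on the DMSO arrays. Probe set 203455_s_at had signals of 8713, 7869, 7384 and 8036 on the nilotinib arrays, 6887, 5505, 6291 and 5832 on the imatinib arrays and 3027, 3573, 2966 and 2640.2 on the DMSO arrays. Probe set 213988_s_at had signals of 3229.9, 3105, 2889 and 3425 on the nilotinib arrays, 2597, 1849, 2283 and 2299 on the imatinib arrays and 1001, 938, 837 and 911 on the DMSO arrays. On all 3 probe sets the nilotinib arrays were highest, the imatinib arrays between and the DMSO arrays lowest, without overlap. The log2 fold changes ran from 1.39 to 1.76 with nilotinib and from 1.01 to 1.27 with imatinib, each with an SE of 0.09 or 0.10. The largest of the 6 adjusted p-values from limma was 5.01e-08. The probe set that names SAT1 together with another gene (210593_at) was dim in every group, at 33.0 ± 24.9 with nilotinib, 12.0 ± 5.87 with imatinib and 34.6 ± 20.7 with DMSO, and the filter lay at a signal of about 80.6.

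OAZ1 and OAZ2 are antizymes, whose translation in mammals needs a ribosomal frameshift that polyamines promote. OAZ1 (200077_s_at) had signals of 10657, 11004, 10209 and 11352 on the nilotinib arrays, 10610.1, 10072, 12109 and 10328 on the imatinib arrays and 8775, 11232, 9889.9 and 8933 on the DMSO arrays. These groups overlap. OAZ1 had log2 fold changes of 0.16 ± 0.08 with nilotinib (95% interval -0.0035 to 0.32) and 0.15 ± 0.08 with imatinib (-0.01 to 0.32), and neither passed (limma adjusted p = 0.0895 and 0.136). Its other probe set (215952_s_at) had 0.17 ± 0.10 and 0.09 ± 0.10 (limma adjusted p = 0.164 and 0.528). Without DMSO replicate 10, OAZ1 by 200077_s_at passed at 0.23 with nilotinib (limma adjusted p = 0.0145) and 0.23 with imatinib (limma adjusted p = 0.0257), without nilotinib replicate 2 its other probe set passed with nilotinib at 0.26 (limma adjusted p = 0.0339), and its direction with nilotinib turned with the scaling. By 200077_s_at the nilotinib value was 0.27 with quantile normalization, 0.29 with cyclic loess and -0.36 with median centring, each called (limma adjusted p = 0.00613, 0.00311 and 0.000630).

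OAZ2 (201364_s_at) had signals of 692, 618, 805 and 829 on the nilotinib arrays, 522, 540.4, 564 and 722 on the imatinib arrays and 443, 474, 413 and 463 on the DMSO arrays. Its other probe set (201365_at) had signals of 679.9, 808, 524 and 762 on the nilotinib arrays, 475, 408, 594 and 575 on the imatinib arrays and 440.0, 414, 373 and 424 on the DMSO arrays. With nilotinib both probe sets lay above every DMSO array, and with imatinib 201364_s_at did and 201365_at did not. OAZ2 rose with nilotinib by 0.69 ± 0.13 and 0.71 ± 0.15 on the log2 scale (limma adjusted p = 0.000174 and 0.000505). With imatinib it had 0.37 ± 0.13 (limma adjusted p = 0.0290), which passed, and 0.29 ± 0.15 (limma adjusted p = 0.134), which did not. With median centring the nilotinib values were 0.16 and 0.19 and both calls were lost (limma adjusted p = 0.331 and 0.256), and the imatinib call of 201364_s_at was lost there and with quantile normalization. That imatinib call was also lost without imatinib replicate 8 (0.27), DMSO replicate 9 (0.36) or DMSO replicate 11 (0.33), and 201365_at passed without imatinib replicate 6 (0.39, limma adjusted p = 0.0493). OAZ2 by 201365_at passed with imatinib also without the arrays of high actin ratio (0.49, limma adjusted p = 0.0220).

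DHPS, deoxyhypusine synthase, transfers part of spermidine to a lysine of EIF5A. By its brightest probe set (207831_x_at), of a kind that can bind related transcripts, DHPS had signals of 307, 333, 474 and 534 on the nilotinib arrays, 365, 330.3, 353 and 415 on the imatinib arrays and 525, 485, 597 and 464 on the DMSO arrays. Probe set 202802_at had signals of 301, 205, 285 and 299 on the nilotinib arrays, 247, 319, 289 and 312 on the imatinib arrays and 366, 330.3, 389 and 326 on the DMSO arrays. Probe set 211558_s_at had signals of 296, 92.5, 330.4 and 304 on the nilotinib arrays, 260.0, 337, 352 and 273 on the imatinib arrays and 329, 312, 349 and 361 on the DMSO arrays. All means were lower with either drug than with DMSO, the drug arrays lay below every DMSO array for 202802_at and the imatinib arrays did for 207831_x_at, and nilotinib replicate 2 was far below its group on the last 2 probe sets. With nilotinib the log2 fold changes were -0.35 ± 0.16, -0.36 ± 0.16 and -0.51 ± 0.27 in the order given (95% intervals -0.69 to -0.01, -0.69 to -0.04 and -1.09 to 0.06), and none of the 3 passed (limma adjusted p = 0.0782, 0.0567 and 0.118; 2 of 3 had an unadjusted p under 0.05). With imatinib they were -0.48 ± 0.16, -0.26 ± 0.16 and -0.15 ± 0.27, and the first passed (limma adjusted p = 0.0270, 0.205 and 0.717). That call was lost without imatinib replicate 6 or 7 or without DMSO replicate 9 or 11 (limma adjusted p = 0.0679, 0.0587, 0.0590 and 0.0906). With nilotinib, 207831_x_at passed without nilotinib replicate 3 or 4 (-0.42 and -0.48) and 202802_at without nilotinib replicate 1 (-0.41). Without the 4 arrays of high actin ratio the nilotinib values were -0.03, -0.25 and -0.08 (limma adjusted p = 0.856, 0.183 and 0.676), and without nilotinib replicate 2 alone 202802_at had -0.24 and 211558_s_at -0.12 (limma adjusted p = 0.171 and 0.529). Under the 3 other scalings all 3 DHPS probe sets were called lower with nilotinib, at -0.51, -0.66 and -0.82 with quantile normalization (limma adjusted p = 0.0192, 0.00507 and 0.0392).

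**Figure D2:**
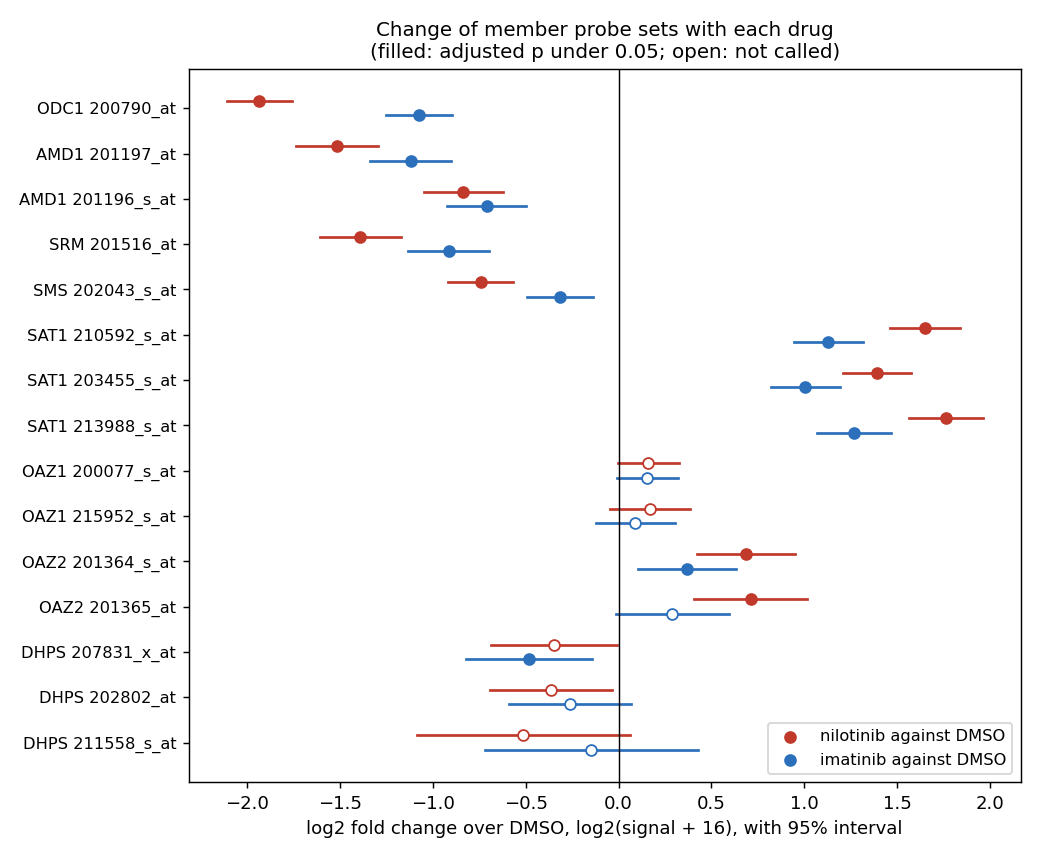
Log2 fold change over DMSO of log2(signal + 16) for each tested probe set, nilotinib above imatinib in each row, with 95% intervals and filled points where the adjusted p was under 0.05. The 5 synthesis probe sets lie left of 0 and the 3 of SAT1 right of it with both drugs, from -1.93 for ODC1 to 1.76 for SAT1 with nilotinib.

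Set against each other at these unequal doses, the drugs left several of the transcripts at different levels. ODC1, SRM, SMS and 1 of 2 AMD1 probe sets were lower with nilotinib, and all 3 SAT1 probe sets were higher. That is 3 of 15 called higher and 4 lower, where 4.77% and 6.66% of all 11696 probe sets were called higher and lower, or 7 in all against 11.4%. No log2 difference reached 1 in either direction in the 15, where 1.12% of all probe sets were called with such a change (none of the 15 had one at an unadjusted p under 0.05 in limma's test). The arrays of the 2 drugs did not overlap for 7 of 15, beside 16.6% of all. Of the 15, ODC1 had the largest difference, -0.86 ± 0.08 on the log2 scale (limma adjusted p = 2.66e-05), with the nilotinib mean at 55.3% of the imatinib mean. SRM had -0.48 ± 0.10 (limma adjusted p = 0.00714) and SMS -0.43 ± 0.08 (limma adjusted p = 0.00381). AMD1 had -0.40 ± 0.10 by 201197_at (limma adjusted p = 0.0208) and -0.13 ± 0.10 by 201196_s_at (95% interval -0.34 to 0.09), where the drug arrays overlap. The AMD1 call was lost without nilotinib replicate 2 (-0.31, limma adjusted p = 0.0590), without imatinib replicate 6 (-0.31, limma adjusted p = 0.0746) and without the 4 arrays of high actin ratio (-0.26). It was lost also with no intensity trend and with only the 2 groups compared (limma adjusted p = 0.0549 and 0.0612).

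SAT1 was higher with nilotinib than with imatinib by 0.52 ± 0.09, 0.39 ± 0.09 and 0.49 ± 0.10 on the log2 scale for 210592_s_at, 203455_s_at and 213988_s_at (limma adjusted p = 0.00137, 0.00970 and 0.00347). With median centring these differences were 0.22, 0.09 and 0.19 and none was called (limma adjusted p = 0.0660 to 0.554). ODC1, SRM and SMS were called lower under all 25 alternatives that ask for no minimum change. With a log2 difference of at least 1 required, none of them was called. The call of 203455_s_at was lost also without the arrays of high actin ratio (0.35, limma adjusted p = 0.111) and with no intensity trend. The OAZ2 probe sets had 0.32 ± 0.13 and 0.42 ± 0.15 (95% intervals 0.06 to 0.58 and 0.12 to 0.73) and did not pass (limma adjusted p = 0.103 and 0.0674), but the first passed without imatinib replicate 8 (0.42) and the other without nilotinib replicate 3 (0.55). OAZ1 had intervals of -0.16 to 0.17 and -0.13 to 0.29, and the 3 DHPS probe sets -0.21 to 0.48, -0.43 to 0.23 and -0.94 to 0.21.

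The arrays of high actin ratio, 2 per drug, were also compared apart from the other 2 per drug, as values with no test. ODC1 differed by -1.05 within the arrays of high ratio and -0.67 within the rest, SRM by -0.44 and -0.51, and SMS by -0.45 and -0.41. SAT1 by 210592_s_at differed by 0.56 and 0.48. All of these keep their sign within both sets of arrays. AMD1 by 201197_at had -0.54 and -0.26, and by 201196_s_at -0.30 and 0.05, which changes sign. DHPS by 207831_x_at (-0.11 and 0.38) and 211558_s_at (-0.76 and 0.03) and OAZ1 by 200077_s_at (0.07 and -0.05) also changed sign. The remaining tested probe sets kept theirs, with OAZ2 by 201365_at at 0.73 and 0.11.

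**Figure D3:**
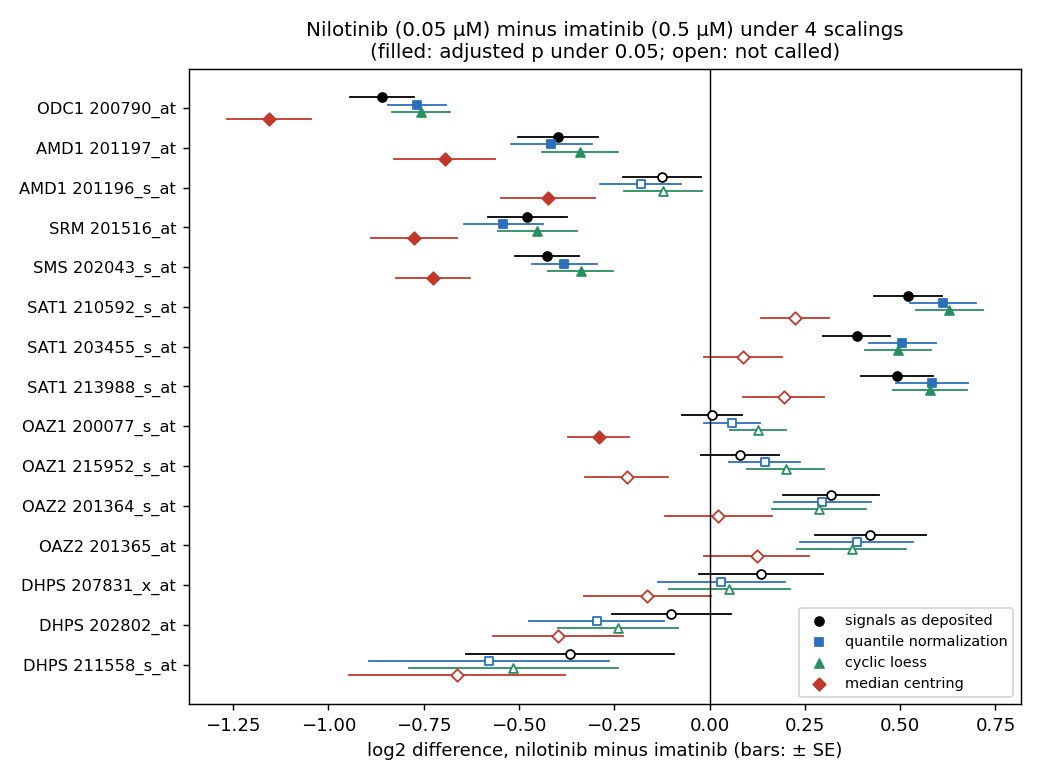
Log2 difference of nilotinib minus imatinib for each tested probe set under 4 scalings, with bars of ± SE and filled points where the adjusted p was under 0.05. Median centring, drawn as diamonds, moves every probe set to the left, so that SAT1 is no longer called and OAZ1 by 200077_s_at lies at -0.29, while ODC1, SRM and SMS stay called.

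The balance of directions moved with the scaling. Of the 6423 probe sets called among all with nilotinib over DMSO, 60.4% were higher, against 47.0% with quantile normalization, 47.5% with cyclic loess and 17.0% with median centring. With imatinib over DMSO the share was 56.2%, against 26.1% with median centring, and for nilotinib over imatinib 41.7%, against 2.68%. Median centring moved the median log2 fold change of all probe sets to -0.37 with nilotinib, -0.13 with imatinib and -0.24 between the drugs. For the 15 probe sets it gave 3 higher and 10 lower with nilotinib, 3 higher and 7 lower with imatinib, and 0 higher and 6 lower between the drugs. The 3 that stayed higher over DMSO were those of SAT1, at 1.13, 0.87 and 1.24 with nilotinib.

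Other genes of the pathway were taken from lists by role, 33 genes in all, each by its brightest tested probe set. Of the 22 measured, nilotinib raised 3 (GATM, near the filter, among them) and lowered 10, and imatinib raised 2 and lowered 10. Of all 8021 genes by their brightest probe set, 34.3% were called higher and 23.2% lower with nilotinib, and 21.5% and 16.9% with imatinib. Between the drugs, 0 of the 22 were called higher and 3 lower with nilotinib (1 and 5 at an unadjusted p under 0.05 in limma's test), beside 5.06% and 7.46% of all genes. Their median log2 fold change was -0.21 with nilotinib, against 0.15 for all probe sets, and -0.25 with imatinib, against 0.09. OAZ3, ARG1, OTC, MAT1A, SLC12A8 and SLC47A1 lay below the filter, and SAT2, AZIN2, MRI1 and SLC18B1 had no probe set that names them alone here.

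EIF5A, the protein that carries hypusine and helps ribosomes through difficult peptide bonds, fell on all 3 of its probe sets with both drugs. By the brightest (201123_s_at) its signals ran over 1098 to 1980.0 with nilotinib, 1403 to 2908 with imatinib and 2833 to 3388 with DMSO. The log2 fold changes were -1.03 ± 0.19 with nilotinib (limma adjusted p = 0.000230) and -0.62 ± 0.19 with imatinib (limma adjusted p = 0.0169), and -0.48 and -0.77 with nilotinib by the others, of which 213753_x_at was also lower with nilotinib than with imatinib (-0.36, limma adjusted p = 0.0323). The imatinib call of 201123_s_at was lost without imatinib replicate 5 (-0.46), without imatinib replicate 6 (-0.51) and without the arrays of high actin ratio (-0.20). With no intensity trend that call was lost too (limma adjusted p = 0.0637). DOHH, which completes hypusine, had 0.33 ± 0.16 with nilotinib and 0.21 ± 0.16 with imatinib and did not pass (limma adjusted p = 0.0885 and 0.338). Among the other hypusination genes, then, 1 of 3 fell with either drug (all genes, 23.2% with nilotinib and 16.9% with imatinib) and none rose by limma, and none had an unadjusted p under 0.05 in the direction of a rise. AZIN1, the antizyme inhibitor that frees ODC1 protein, had -0.68 ± 0.09 with nilotinib and -0.46 ± 0.09 with imatinib by its brightest probe set (limma adjusted p = 9.71e-06 and 0.000886), but -0.01 and 0.01 by 212461_at, so its probe sets disagree. In breakdown, neither SMOX nor PAOX, the polyamine oxidases, passed with either drug, and neither had an unadjusted p under 0.05 in limma's test.

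Ornithine reaches ODC1 from arginine, and the genes of its supply moved in different directions. ARG2, the mitochondrial arginase, had a signal of 313 ± 93.0 with nilotinib, 275 ± 21.1 with imatinib and 1037 ± 75.5 with DMSO (SD, n = 4 each), and log2 fold changes of -1.71 ± 0.16 and -1.86 ± 0.16 over DMSO (limma adjusted p = 4.61e-08 and 2.86e-08). Its other probe set (203945_at) gave smaller changes, -0.40 with nilotinib and -0.66 with imatinib (limma adjusted p = 0.0346 and 0.00247). OAT, the ornithine aminotransferase that draws ornithine towards proline and glutamate, rose by 1.16 ± 0.06 with nilotinib and 1.03 ± 0.06 with imatinib (limma adjusted p = 4.40e-11 and 3.66e-10). GATM, an enzyme of creatine synthesis that releases ornithine, rose with nilotinib (0.84 ± 0.29, limma adjusted p = 0.0199) and did not pass with imatinib (0.42 ± 0.29, limma adjusted p = 0.284). The GATM call was lost under all 3 other scalings and without nilotinib replicate 4 (0.70), DMSO replicate 9 (0.77) or DMSO replicate 11 (0.78). In all, 2 of 5 measured supply genes (GATM among them) rose and 1 fell with nilotinib, and 1 rose and 1 fell with imatinib. Of all genes, 34.3% rose and 23.2% fell with nilotinib, and 21.5% rose and 16.9% fell with imatinib.

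The list of S-adenosylmethionine supply and methylthioadenosine salvage had 4 of 7 measured genes lower and 1 higher with each drug, beside 23.2% of all genes lower and 34.3% higher with nilotinib, and 16.9% and 21.5% with imatinib. MAT2A, which makes S-adenosylmethionine, the substrate of AMD1, had 3003 ± 551 with nilotinib, 3278 ± 322 with imatinib and 9169 ± 383 with DMSO (SD, n = 4 each). It fell by 1.62 on the log2 scale with nilotinib and by 1.48 with imatinib (limma adjusted p = 3.50e-10 and 2.26e-09). ENOPH1, an enzyme of methylthioadenosine salvage, had -1.07 ± 0.13 and -0.67 ± 0.13, and AHCY, which clears S-adenosylhomocysteine, -0.94 ± 0.10 and -0.64 ± 0.10, all called. ADI1, a dioxygenase of the same salvage route, rose by 0.38 ± 0.09 with nilotinib and 0.75 ± 0.09 with imatinib (limma adjusted p = 0.00139 and 2.20e-06), but with median centring its nilotinib value was -0.14. Between the drugs, AHCY (-0.30 ± 0.10), ENOPH1 (-0.40 ± 0.13) and ADI1 (-0.37 ± 0.09) were lower with nilotinib (limma adjusted p = 0.0492, 0.0475 and 0.0135), and 18 of 25 alternatives lost the call of AHCY and 17 of 25 that of ENOPH1. The call of ADI1 between the drugs was lost under 4 of 25, namely quantile normalization (-0.27), cyclic loess (-0.28), without the arrays of high actin ratio (-0.30) and without imatinib replicate 6 (-0.30), at limma adjusted p = 0.0502, 0.0540, 0.165 and 0.0504.

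In transport, 3 of 4 measured genes fell with each drug, beside 23.2% of all genes with nilotinib and 16.9% with imatinib, and none rose (none had an unadjusted p under 0.05 for a rise in limma's test). SLC7A1, the arginine transporter CAT1, had 917 ± 73.1 with nilotinib, 1113 ± 127 with imatinib and 3347 ± 93.1 with DMSO (SD, n = 4 each). Its log2 fold changes were -1.85 ± 0.09 and -1.58 ± 0.09 (limma adjusted p = 5.77e-12 and 9.96e-11). The other tested probe set of SLC7A1 (212290_at), at a mean signal of 98.6, had -0.98 and -0.80 and did not pass (limma adjusted p = 0.0761 and 0.191). SLC3A2, the heavy chain of amino acid exchangers that has also been linked to polyamine export, had -0.99 ± 0.14 and -1.28 ± 0.14 (limma adjusted p = 9.43e-06 and 6.82e-07). ATP13A3, a transporter of the family that moves polyamines, had -0.29 ± 0.08 and -0.32 ± 0.08, and its nilotinib call was lost with quantile normalization and cyclic loess.

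**Figure D4:**
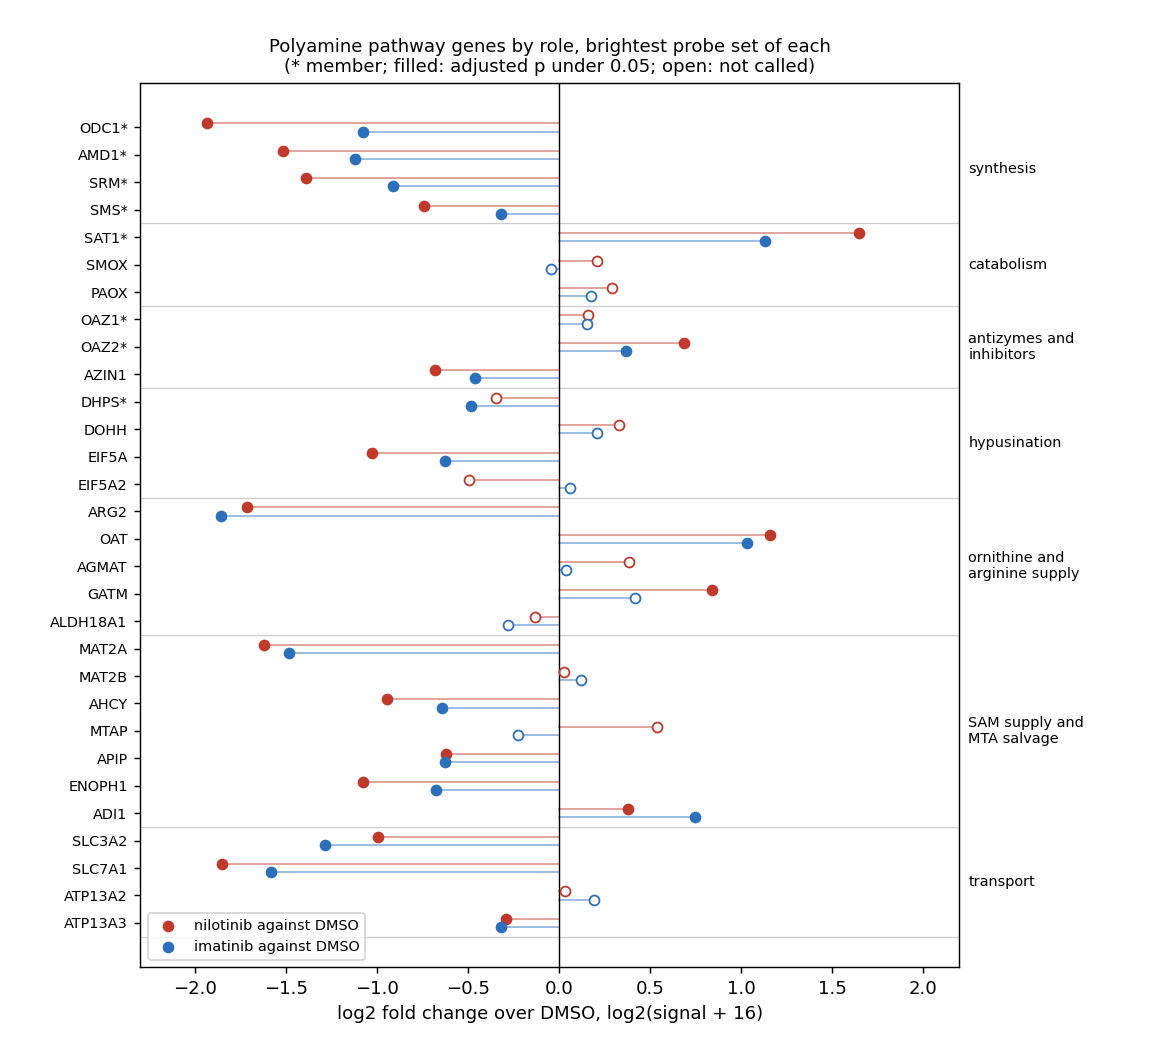
Log2 fold change over DMSO for the brightest tested probe set of each pathway gene, grouped by role, with nilotinib above imatinib in each row, members marked by an asterisk and filled points where the adjusted p was under 0.05. The 4 synthesis genes, MAT2A, ARG2 and SLC7A1 lie to the left with both drugs, and SAT1 and OAT to the right.

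The genes whose 12 values, each taken relative to its own DMSO mean on the log2 scale, were nearest to those of ODC1 among 8020 other genes were NDUFAF4 (0.159), CD24 (0.163) and GCSH (0.175), with the root mean square difference in brackets. For SAT1 they were MERTK (0.126), TMOD1 (0.142) and KLF11 (0.144). The 12 points of every gene share the same arrays and groups, and no test was made of the likeness.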

How the data were processed

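Total RNA from K562 cells was biotin-labelled and hybridized to Affymetrix U133 A 2.0 arrays, per the labels. The deposited values are linear intensity signals that the authors computed with MAS5 (per the submitters' processing notes, without a version). Trimmed means without the 2% tails were within 10% of each other (average 499.9), so values were used as deposited, as log2(signal + 16). Scaling an array by 1 factor leaves differences in background or RNA composition in place.

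Of 22277 probe sets, 62 were controls, 19064 named 1 gene, 1043 several and 2108 none. Those naming 1 gene with a mean at or above the 40th percentile of all probe sets, 11696 in all, were each tested in 1 fit of all 12 arrays by limma 3.58.1 (R 4.3.3, group means, intensity trend). Benjamini-Hochberg adjustment ran per comparison, and calls were made at 0.05. The number of arrays limits precision (median SE 0.16). Detection calls were not used. Groups came from titles, and 0 columns were unmapped. The script was tested on simulated data.

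Members, lists and the naming rule (all members, and up to 4 called genes per list by size of change, plus EIF5A) were chosen with earlier results of these data known. SMOX, PAOX, DOHH, APIP and MTAP are named besides, after their values were seen. Alternatives were other pseudocounts, filters, scalings, variance models and weights, only the brightest probe set, only the groups compared, a minimum change, and arrays left out. Sequences are RefSeq's, GRCh38.p14, matched by symbol for 8 of 8 genes. Figures used matplotlib 3.10.9.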

Additional observations from a re-analysis of the deposited data

Results flagged for a closer look

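Among 48 groups of 4 arrays (16 probe sets in 3 groups each), 4 held an array that stood apart from the other 3 by Dixon's criterion for 4 values, which flags about 1 in 20 groups by chance. SRM had 643 on imatinib replicate 5, against 848 to 874 on the other imatinib arrays. DHPS had 205 by 202802_at on nilotinib replicate 2, against 285 to 301 on the other nilotinib arrays. On the same array DHPS had 92.5 by 211558_s_at, against 296 to 330.4. The dim probe set 210593_at, which names SAT1 and another gene, had 70.2 on nilotinib replicate 1, against 18.1 to 23.3 on the other nilotinib arrays. Nilotinib replicate 2 also had the highest actin 3'/5' ratio of the 12 arrays, 5.49. Without the 4 arrays of high ratio the log2 change of DHPS with nilotinib over DMSO was -0.25 by 202802_at and -0.08 by 211558_s_at.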

How the results depend on the processing

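The minimum change was counted apart and is not among the 25 alternatives that follow. Over 25 alternatives the calls of ODC1, SRM, SAT1 and both AMD1 probe sets against DMSO, and of SMS against DMSO with nilotinib, kept their direction and their side of the threshold wherever these probe sets were tested. Of 1104 values of member probe sets under an alternative, 1050 stayed on their side of the threshold, 22 lost a call, 29 gained one and 3 turned to a called change of the other sign. In all, 18 changed sign, and 15 of these were called neither before nor after. The 15 were probe sets of OAZ1 for imatinib over DMSO and of OAZ1, AMD1 (201196_s_at) and DHPS for nilotinib over imatinib. The 3 were OAZ1 with median centring, -0.36 and -0.35 for nilotinib over DMSO by its 2 probe sets and -0.29 for nilotinib over imatinib by 200077_s_at. Median centring also turned ADI1 to -0.14 for nilotinib over DMSO and APIP, another salvage enzyme, to -0.29 for nilotinib over imatinib. With only the brightest probe set of each gene, 6 of 8 members were called for nilotinib over DMSO, against 10 of 15 probe sets, where 58.2% of the 8021 genes so tested were called. With a log2 change of at least 1 added to limma's adjusted p, 6 member probe sets (of all, 1925) were called for nilotinib over DMSO, 5 (of all, 841) for imatinib over DMSO and 0 (of all, 131) for nilotinib over imatinib, where none had an unadjusted p under 0.05 and such a change either. Over all probe sets, nilotinib over imatinib gave 1337 calls, 3541 with median centring and 510 without the 4 arrays of high actin ratio, and leaving out 1 array at a time gave 799 (without imatinib replicate 6) to 1251. Leaving out 1 array gave 10 to 11 called member probe sets for nilotinib over DMSO, 8 to 11 for imatinib over DMSO and 6 to 8 for nilotinib over imatinib. The causes were not tested, other than that the brightest-probe-set and minimum-change settings test fewer features or ask for more. No paired analysis was possible because the groups share no replicate numbers. DHPS, at signals of 92.5 to 597, and other dim probe sets are the least precise.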

Other observations

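MTAP, the enzyme that starts the salvage of the methylthioadenosine made by SRM and SMS, was dim in all groups. Of its 5 probe sets, 4 lay below the filter, with mean signals over the 12 arrays of 19.7, 21.7, 24.7 and 20.8. The one tested (211364_at) had 136 ± 60.9 with nilotinib, 83.1 ± 49.6 with imatinib and 86.3 ± 29.3 with DMSO (SD, n = 4 each), and it did not pass in any comparison (limma adjusted p = 0.310, 0.734 and 0.267 for nilotinib over DMSO, imatinib over DMSO and nilotinib over imatinib).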
